A study of Mus musculus with 12 samples.

Results

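The 4 small RNA libraries examined here came from mouse stem-like medulloblastoma cells carrying a CRISPR guide against the long non-coding RNA Miat. sgMiat-6 and sgMiat-96 had 2 libraries each, labelled Miat knockdown, out of 12 libraries in the whole series. They were chosen by their labelled guide alone, and the question was which small RNAs differed between guides that share 1 target. All 12 libraries had the genotype Math1-Cre; SmoM2 and the source tissue cerebellum, in which Math1-Cre acts in the cerebellar granule lineage and SmoM2 is a constitutively active Smoothened. The other libraries carried sgGal4-4 (4 libraries, labelled WT and used as control), sgMtdh-1 (2 libraries) or sgMtdh-2 (2 libraries). The labels give neither the guide sequences nor the sex or age of the animals, and nothing in them says that replicates came from separate cultures. The p-values therefore reflect only how far these libraries vary, which may be technical variation.

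Counts were deposited for 4529 rows per library, and rows of 1 symbol with identical values were counted once. This left 1735 entries with a count in any library, 1280 of them in the 4 Miat libraries. The entries are annotated RNAs, and all 202 tested here carry non-coding RefSeq identifiers, so a row named after a protein-coding gene holds reads assigned to a non-coding transcript of that gene. The libraries held 161038 and 118426 counts for sgMiat-6 and 82457 and 83001 for sgMiat-96, against 33737 to 64366 in the controls and 22785 to 152115 with the Mtdh guides. The tested set was the 202 entries that passed a minimum rate in at least 2 of the 12 libraries, whichever guide these carried. That rate was the one that 10 counts make in a library of median depth. The 202 entries held 97.5 to 98.8% of each library's counts. Levels are given as CPM, counts per 1000000 counts of the tested entries after scaling by trimmed mean of M values (TMM), and an entry was called at a Benjamini-Hochberg adjusted p under 0.05 in edgeR's quasi-likelihood test over all 12 libraries. No molecular identifiers are named in the labels, so counting intervals cover counting error only, and a bulk library cannot tell fewer cells of a type from less RNA per cell.

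C/D box small nucleolar RNAs (snoRNAs) guide 2′-O-methylation of ribosomal and spliceosomal RNA, and H/ACA box snoRNAs guide pseudouridylation. Both kinds are mostly cut from the introns of host genes, many of which encode ribosomal proteins or translation factors, while Cajal body RNAs (scaRNAs) direct the same modifications on spliceosomal RNAs. RNase P trims the 5′ end of transfer RNA precursors, and the related RNase MRP acts on the ribosomal RNA precursor. MicroRNAs (miRNAs) are cut from hairpin precursors and recognise target RNAs through their seed.

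The sequences of the RNAs on which the comparison turned are shown first. The miRNA precursors called between the guides were Mir351 and Mir20a, whose mature forms are printed with the seed, bases 2 to 8, in capitals, from RefSeq on GRCm38.p6. The 4 seeds differ from each other. Mir351 lies on the minus strand of chrX, with its arms at chrX:53053315-53053338 and chrX:53053276-53053296. Mir20a lies on the plus strand of chr14, at chr14:115044183-115044205 and chr14:115044219-115044240.
mmu-miR-351-5p: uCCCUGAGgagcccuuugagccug
mmu-miR-351-3p: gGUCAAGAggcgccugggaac
mmu-miR-20a-5p: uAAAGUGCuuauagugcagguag
mmu-miR-20a-3p: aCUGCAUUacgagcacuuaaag

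Snord67 and Snord37 were higher with sgMiat-96, and Snord45b, Snord57, Snord34 and Snord83b were lower with it. Their transcripts are printed as DNA letters from GENCODE on GRCm38, with capitals on the first GATG, the core of box C, and the last CTGA, the letters of box D. These letters, searched on the transcript strand only, occurred in this order in 62 of 64 C/D box transcripts matched (96.9%), including the 6 printed, and a match describes letters rather than function.
Snord67 chr2:91596070-91596180 plus strand: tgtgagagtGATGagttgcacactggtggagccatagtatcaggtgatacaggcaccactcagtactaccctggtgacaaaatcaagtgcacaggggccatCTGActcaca
Snord37 chr10:81178950-81179013 plus strand: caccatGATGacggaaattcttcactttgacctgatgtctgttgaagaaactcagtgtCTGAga
Snord45b chr3:153910563-153910633 minus strand: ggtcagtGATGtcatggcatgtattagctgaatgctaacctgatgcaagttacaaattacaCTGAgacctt
Snord57 chr2:130278016-130278087 plus strand: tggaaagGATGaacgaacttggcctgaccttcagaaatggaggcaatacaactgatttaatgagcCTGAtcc
Snord34 chr7:45126601-45126670 minus strand: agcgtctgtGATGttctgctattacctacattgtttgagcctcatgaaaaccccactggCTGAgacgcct
Snord83b chr15:80078498-80078591 minus strand: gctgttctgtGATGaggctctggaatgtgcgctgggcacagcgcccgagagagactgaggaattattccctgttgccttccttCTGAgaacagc

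Between the guides, 43 of 202 entries were called, a background of 21.3%. With sgMiat-96, 14 were higher (6.93%) and 29 were lower (14.4%), and 18 of those 29 were C/D box snoRNAs. The 4 libraries did not overlap between guides for any of the 43, which holds for 64.9% of all entries tested (131). The direction of the split depended on scaling: TMM placed the median of all 202 entries at -0.45 on the log2 scale, against 0.08 with DESeq2 size factors, where 22 calls were higher and 21 lower. Upper-quartile factors gave 22 higher and 21 lower, library totals 15 and 21, and totals without Rn45s 23 and 20. Of the 43 calls, 33 were called under all 5 scalings, 14 of them higher and 19 lower. 42 kept their sign under all 5, and Snord98 was not tested under totals without Rn45s. Another 9 entries, all higher with sgMiat-96, were called under 1 to 4 of the other scalings and not with TMM. Of these, 5730488B01Rik was called under all 4 and Fth1, Sf1, Vaultrc5, Malat1, Scarna6 and both Gm5643 entries under 3. Orders among libraries are given on the TMM scale unless another is named.

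**Figure D1:**
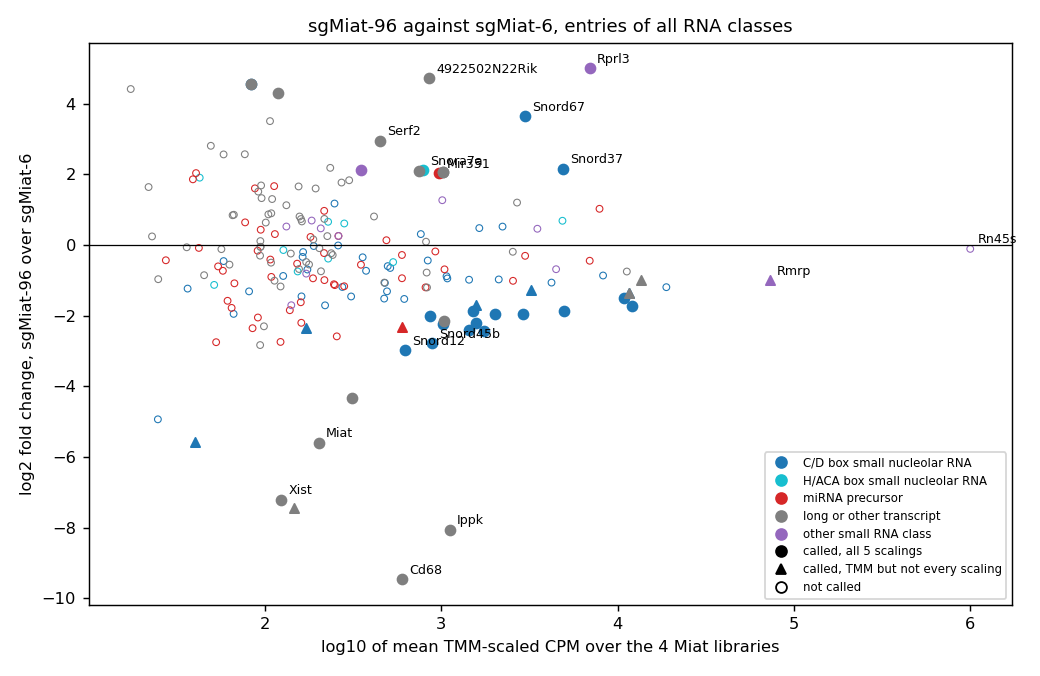
Each entry's log2 fold change of sgMiat-96 over sgMiat-6 against the log10 of its mean TMM-scaled CPM over the 4 Miat libraries, with colours for RNA classes, filled circles for the calls under all 5 scalings, triangles for calls under TMM but not every scaling, and open circles for entries not called. Blue C/D box snoRNAs lie mostly below 0, as do 129 of all 202 entries under TMM, while Rprl3, Snord67 and Snord37 lie above it. Fitted values of entries with 3 or fewer counts with a guide (Cd68, Xist, Miat, Ippk and others) depend on the prior count. Mir146b, at 0 in all 4 libraries, is not drawn.

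The series holds another pair of guides to a single gene, sgMtdh-1 and sgMtdh-2, with 2 libraries each. There edgeR called 0 of 202 entries (0%) and DESeq2 also 0, with 23 entries at an unadjusted p under 0.05, against 72 between the Miat guides. The libraries did not overlap for 60 of the 202 entries (29.7%). The Mtdh libraries varied more in depth, so the pairs are not matched in precision, and the median standard error was 0.79 on the log2 scale against 0.75 for the Miat pair. The difference between the pairs was not tested.

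The target itself was the first point checked. Miat, a nuclear long non-coding RNA (chr5:112213228-112228948), had 49 and 30 counts in the sgMiat-6 libraries, labelled Miat knockdown, against 1 and 0 in the sgMiat-96 libraries and 0, 1, 1 and 1 in the controls. Both libraries labelled sgMiat-6 were above every other library, so reads from Miat go against the label there. Over summed counts the rate with sgMiat-6 was 283 unscaled CPM, per 1000000 of all counts (exact 95% interval 224 to 352). For sgMiat-96 it was 6.04 (0.153 to 33.7), and the controls had 15.9 (3.29 to 46.6). The ratio of sgMiat-6 to sgMiat-96 was 59.3, with a counting interval of 10.3 to 2371 and an edgeR adjusted p of 0.00369. Miat passed the count filter only through the sgMiat-6 libraries. It thus had to be higher there to be tested, and this p is no support for the direction. The call was lost without sgMiat-6 replicate 1 and without sgMiat-96 replicate 2. A fit without a Miat library leaves that guide 1 library, which is then assumed to vary like the libraries of the other groups. Small RNA libraries count short fragments and do not measure the level of the long transcript, so a knockdown cannot be read from these counts in either direction.

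Other long transcripts were counted almost only with sgMiat-6. Cd68, Ippk, Xist, Fcho1 and Gm12992 passed the count filter only through the sgMiat-6 libraries. They thus had to be higher there to be tested, and their p-values are no support for the direction. The labels name no animal or culture for any library, so a difference between the guides cannot be told apart from a difference in the cells from which their libraries came. Cd68, whose protein is a lysosomal glycoprotein of macrophages (chr11:69664213-69666170), had 134 and 99 counts with sgMiat-6 and 0 in each of the other 10 libraries. With a floor of 3 counts per library it was at least 21.6-fold lower with sgMiat-96 (edgeR adjusted p = 0.000168). The zero counts allow up to 22.3 unscaled CPM with sgMiat-96 (exact 95% limit), against 834 unscaled CPM with sgMiat-6. The blood markers Mir142, Mir223, Mir144, Mir451a and Mir150 were at 0 in all 12 libraries, and the sixth, Mir155, was at 0 in all 4 Miat libraries and had 1 count in a control and 1 in an Mtdh library.

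Ippk, which encodes a kinase that makes inositol hexakisphosphate (chr13:49421198-49464574), had 238 and 196 counts with sgMiat-6 against 1 and 0 with sgMiat-96. The controls had 1, 0, 0 and 0 counts, and the Mtdh libraries 5, 6, 2 and 3. The ratio between the Miat guides was 326 (counting interval 58.2 to 12896, edgeR adjusted p = 2.31e-05). As Ippk passed the count filter only through the sgMiat-6 libraries, it had to be higher there to be tested, and this p is no support. Both sgMiat-6 libraries were far above the rest.

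Xist, the long non-coding RNA that coats the inactive X chromosome (chrX:103460373-103483233), had 30 and 19 counts with sgMiat-6 and 0 with sgMiat-96. A single control count was the only other count in the 12 libraries, and its antisense partner Tsix was at 0 throughout. Xist was at least 4.49-fold lower with sgMiat-96 (edgeR adjusted p = 0.0165), a call lost without either library of either Miat guide and without sgGal4-4 replicate 2. The labels give no sex, and no entry on the Y chromosome had a count in any library, so the sex of the animals behind each library was not tested.

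Fcho1, whose protein takes part in clathrin-mediated endocytosis (chr8:71708387-71729330), had 31 and 26 counts with sgMiat-6, 0 with sgMiat-96 and 3, 0, 1 and 0 in the controls. It was at least 5.31-fold lower with sgMiat-96 (edgeR adjusted p = 0.0158), but its adjusted p was 0.0518 with library totals, and the call was lost without sgMiat-6 replicate 2 or either sgMiat-96 library. Gm12992 (chr4:131899478-131920029), which overlaps the splicing factor gene Srsf4, had 85 and 35 counts with sgMiat-6, 2 in each sgMiat-96 library and at most 6 elsewhere. Its level was 773 and 411 CPM against 21.7 and 36.8 CPM, a difference of -4.33 ± 1.05 (log2, SE; edgeR adjusted p = 0.00503), lost without sgMiat-6 replicate 1 or either sgMiat-96 library. These entries passed the count filter only through the sgMiat-6 libraries, so they had to be higher there to be tested.

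A search over all 1735 entries asked which were nearly confined to a guide, with at least 10 counts in both of its libraries and at least 10 times the rate of every other library. sgMiat-6 had 3 such entries among 139 with enough counts, namely Miat, Cd68 and Fuom, whose gene lies at chr7:140097811-140104832 and which encodes a fucose mutarotase. Fuom had 19 and 17 counts with sgMiat-6 and 0 in the other 10 libraries. No entry met the rule for sgMiat-96 (of 101), sgMtdh-1 (of 67) or sgMtdh-2 (of 86). The thresholds of this search were set after values of these data had been seen.

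C/D box snoRNAs were the class with the most calls: 18 of 56 tested were lower with sgMiat-96 and 3 were higher (37.5% called). Over all 202 entries, 29 were lower (14.4%) and 14 higher (6.93%), or 21.3% called. The class median was -1.21 (log2) under TMM against -0.45 over all entries. Below 0 under TMM were 49 of the 56, against 129 of all 202 entries. The class median was -0.65 with DESeq2 size factors, where that of all entries was 0.08. Under all 5 scalings, 13 C/D box snoRNAs were called lower and 3 higher. Of the 18 in ribosomal protein genes, 7 were called lower with TMM (38.9%) and none higher. Of the 24 in other protein-coding genes, 7 were lower (29.2%) and 2 higher. Of the 14 in long non-coding genes, 4 were lower (28.6%) and 1 higher. The difference between kinds of host was not tested.

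The lower C/D box snoRNAs that were called under every scaling and in each of 12 fits that left out a library were Snord12, Snord45b, Snord57, Snord34, Snord1a, Snord32a, Snord88a and Snord47. Snord57, in an intron of Nop56, a core C/D box protein gene, stood at 2411 and 3476 CPM with sgMiat-6 and 510.2 and 589 CPM with sgMiat-96. The controls stood at 543, 501, 591 and 551 CPM and the Mtdh libraries at 279.7 to 496 CPM. Both sgMiat-6 libraries were above all others, and the sgMiat-96 libraries lay within the range of the controls. The guide difference was -2.42 ± 0.43 (log2, SE; edgeR adjusted p = 0.000707), a 5.35-fold lower level.

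Snord45b and Snord45c come from introns of Rabggtb, a subunit gene of the enzyme that prenylates Rab proteins. Snord45b stood at 1674 and 1433 CPM with sgMiat-6, 261 and 184 CPM with sgMiat-96 and 691, 652, 459 and 465 CPM in the controls. Here sgMiat-6 was above and sgMiat-96 below every other library, though outside Rn45s sgMiat-6 was not above all. Snord45b differed by -2.77 ± 0.47 (log2, SE; edgeR adjusted p = 0.000556) between the guides and was the only entry called against control with both guides in opposite directions, at 1.47 with sgMiat-6 (adjusted p = 0.00601) and -1.31 with sgMiat-96 (adjusted p = 0.0474). Snord45c stood at 16351 and 17015 CPM against 6199 and 6759.8 CPM, a difference of -1.36 (95% interval -2.19 to -0.54) that was called with TMM (edgeR adjusted p = 0.0158) and under none of the other 4 scalings (adjusted p from 0.0683 to 0.154). The intervals of Snord45b and Snord45c overlap, and the difference between them was not tested.

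Snord34 and Snord32a come from introns of the ribosomal protein gene Rpl13a. Snord34 stood at 2675 and 2161 CPM with sgMiat-6, 478 and 424 CPM with sgMiat-96 and 889, 1186, 486 and 857 CPM in the controls. Snord32a stood at 3066 and 2114, 575 and 534 and 593, 936, 512 and 918 CPM in the same order. In both snoRNAs the sgMiat-6 libraries were above every other library. The guide differences were -2.42 ± 0.48 and -2.22 ± 0.44 (log2, SE; edgeR adjusted p = 0.00204 for both). Snord33 of the same host had 7 and 3 counts with sgMiat-6, none with sgMiat-96, and was not called (edgeR adjusted p = 0.0947).

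Snord12, in the long non-coding gene Zfas1, stood at 874 and 1327 CPM with sgMiat-6 against 86.8 and 203 CPM with sgMiat-96, a difference of -2.97 ± 0.61 (log2, SE; edgeR adjusted p = 0.00244). The controls, at 716, 518, 367 and 269 CPM, lay between the guides. Snord1a, in the long non-coding gene Snhg16, stood at 1510.4 and 1844 CPM against 315 and 405 CPM, with the controls at 1383, 1420.1, 787 and 771 CPM. Its difference was -2.23 ± 0.47 (log2, SE; edgeR adjusted p = 0.00244), whereas Snord1b (-0.98, adjusted p = 0.0938) and Snord1c (-0.34, adjusted p = 0.784) of the same host were not called. The sgMiat-96 libraries were below all others for Snord1a on the TMM scale and in unscaled CPM, both of all counts and of those outside Rn45s. The sgMiat-6 libraries were above all others for Snord12 and Snord1a on the TMM scale, but not in unscaled CPM of all counts, and for Snord1a not outside Rn45s.

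Snord47, in an intron of the growth-arrest transcript Gas5, stood at 19072 and 18013 CPM with sgMiat-6 and 4538 and 6649 CPM with sgMiat-96, with the controls at 14665, 12748, 7363 and 11859.5 CPM. The difference was -1.73 ± 0.39 (log2, SE; edgeR adjusted p = 0.0034), and the sgMiat-6 libraries were the highest on the TMM scale. In unscaled CPM of all counts they stood at 13016 and 12953 for Snord47, below all 4 controls at 17607, 15879, 13329 and 15055. Gas5 itself was called at -0.98 (edgeR adjusted p = 0.0344), but under none of the other 4 scalings, where adjusted p ran from 0.276 to 0.388. Snord88a, from 2410002F23Rik, stood at 4622 and 4650.0 CPM against 1020.4 and 1399.8 CPM and differed by -1.94 ± 0.41 (log2, SE; edgeR adjusted p = 0.00244). Its neighbour Snord88c, at -1.94, was lost without either sgMiat-96 library.

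Snord83b and Snord43 share the ribosomal protein gene Rpl3 as host. Snord83b stood at 7689 and 8020.1 CPM with sgMiat-6, 2301 and 1971 CPM with sgMiat-96 and 3975, 3976, 3504 and 4100.0 CPM in the controls, with sgMiat-6 above all other libraries except in unscaled CPM of all counts. It differed by -1.88 ± 0.42 (log2, SE; edgeR adjusted p = 0.0034), a call lost without sgMiat-96 replicate 2. Snord43 stood at 1474 and 1256 CPM against 912 and 2929 CPM, so that the guides overlapped, and it was not called (0.48, 95% interval -1.12 to 2.08). In Rpl23a, Snord42b was called at -1.29 (95% interval -2.14 to -0.44) and Snord42a was not, at 0.31 (95% interval -1.10 to 1.72). Snord42b was called in 1 of the other 4 scalings. The difference between host mates was not tested.

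The remaining lower C/D box calls under all scalings were Snord68 in Rpl13, Snord100 in Rps12 and Snord15a in Rps3, at -2.002, -1.88 and -1.50 (log2). Each was lost without sgMiat-96 replicate 2. Snord15a stood at 16733 and 15512 CPM with sgMiat-6, within the controls' 11090.3 to 18072 CPM, and at 5949 and 5470.4 CPM with sgMiat-96, below every other library. Snord52, Snord17 and Snord98 were called with TMM but not in every scaling.

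Against this direction, Snord67, Snord37 and Snord7 were higher with sgMiat-96. Snord67, in an intron of the microtubule regulator gene Ckap5, stood at 519 and 352 CPM with sgMiat-6, 5298 and 5691 CPM with sgMiat-96 and 839, 317, 472 and 379 CPM in the controls. The sgMiat-6 libraries lay among the controls, though below all others in unscaled CPM of all counts, and the sgMiat-96 libraries above all 10 others. The difference was 3.65 ± 0.49 (log2, SE; edgeR adjusted p = 4.79e-05), a 12.5-fold higher level. The Mtdh libraries, at 1678, 2990.1, 1609.7 and 1309 CPM, also lay above all 4 controls.

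Snord37, in an intron of the elongation factor gene Eef2, stood at 1838 and 1738 CPM with sgMiat-6, 5547 and 10425 CPM with sgMiat-96 and 963, 1136, 499 and 1309.6 CPM in the controls. The difference was 2.16 ± 0.50 (log2, SE; edgeR adjusted p = 0.00362). The sgMiat-96 libraries were above all others, though sgMtdh-1 replicate 2 came close at 5442 CPM. Snord7 rested on 16 and 8 counts with sgMiat-96 against 0 and 1 with sgMiat-6, a ratio of 32 with a counting interval of 5.21 to 1315 (edgeR adjusted p = 0.0269). That call was lost without sgMiat-6 replicate 1 or either sgMiat-96 library, and AI450353 held the same counts.

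Among the 10 H/ACA box snoRNAs tested, Snora7a in the ribosomal protein gene Rpl32 was higher with sgMiat-96 and none was lower. That is 10% called, against 21.3% of all entries. Snora7a stood at 209 and 388 CPM with sgMiat-6, 1715 and 829 CPM with sgMiat-96 and 1753, 1871, 1391 and 1689 CPM in the controls. The sgMiat-6 libraries were below the controls, as were the Mtdh libraries at 679, 205, 444 and 474 CPM. Of the sgMiat-96 libraries, replicate 1 lay among the controls and replicate 2 below. The difference was 2.11 ± 0.53 (log2, SE; edgeR adjusted p = 0.00611), lost without sgMiat-6 replicate 1 or sgMiat-96 replicate 1. Of the 6 scaRNAs tested, only Scarna2 was called (16.7%, against 21.3% of all entries). It was higher with sgMiat-96, at 118 and 141 CPM against 304 and 847 CPM (2.12 ± 0.71, log2, SE, edgeR adjusted p = 0.0376). That call was lost without any 1 of the 4 Miat libraries or sgMtdh-2 replicate 1. For Scarna2 the controls stood at 148, 33.4, 13.1 and 97.9 CPM and the Mtdh libraries at 559, 1051, 1193 and 557 CPM. A level above the controls was thus not particular to sgMiat-96.

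Rprl3, an RNase P RNA-like entry (chr8:3803125-3803359), had the smallest adjusted p among the entries higher with sgMiat-96. It stood at 391 and 446 CPM with sgMiat-6, 16425 and 10480.4 CPM with sgMiat-96, 247, 167, 13.1 and 184 CPM in the controls and 5755, 6099.9, 2719.8 and 4848 CPM in the Mtdh libraries. The sgMiat-96 libraries were the highest of the series, and the controls the lowest with TMM but not in unscaled CPM of all counts. The guide difference was 5.003 ± 0.63 (log2, SE; edgeR adjusted p = 2.31e-05), a 32.1-fold higher level. Rpph1, the RNA subunit of RNase P itself, stood at 5569 and 5484 CPM against 4386 and 2468 CPM and was not called (-0.69, 95% interval -1.58 to 0.21). Rprl3 and Rpph1 resemble each other in sequence, and how the authors' counting divided reads between them is not given in the sources used here. Rmrp, the RNA of RNase MRP, was called lower with TMM at -1.004 ± 0.28 (edgeR adjusted p = 0.0145) and under none of the other 4 scalings, where adjusted p ran from 0.183 to 0.267.

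Of 49 miRNA precursors tested, 1 was higher and 1 lower (4.08% called, against 21.3% of all entries). The class median was -0.56 under TMM and -0.03 with DESeq2 size factors. Mir351, a precursor of an X-linked cluster related to miR-125, stood at 500.4 and 258 CPM with sgMiat-6, 1563 and 1584 CPM with sgMiat-96 and 2543, 2890.3, 1785 and 2766 CPM in the controls. Both sgMiat-6 libraries were below all 10 others. The difference was 2.04 ± 0.44 (log2, SE; edgeR adjusted p = 0.00257), held under all scalings and lost without sgMiat-6 replicate 2. Both entries of the host transcript C430049B03Rik held almost the same reads and are not separate evidence.

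Mir20a, a member of the Mir17hg cluster that MYC proteins are known to activate, stood at 728 and 1268 CPM with sgMiat-6, 228 and 166 CPM with sgMiat-96 and 321, 117, 144 and 233 CPM in the controls. The sgMiat-6 libraries were above all others, and the difference was -2.31 ± 0.64 (log2, SE; edgeR adjusted p = 0.0134). It was called under TMM alone, with adjusted p from 0.0518 to 0.0697 under the other 4 scalings. The 5 tested entries of the Mir17hg family had a median of -2.31, but only Mir20a was called. Mir92-1 stood at -1.20 (edgeR adjusted p = 0.0938) and Mir19a at -2.59 (edgeR adjusted p = 0.0894). Mir19a passed the count filter only through the sgMiat-6 libraries. It thus had to be higher there to be tested and is no support for the family median. The host entry Mir17hg, counted among the 5, held nearly the same reads as Mir92-1. None of 5 tested entries of the miR-30 family, 5 of miR-181, 9 of let-7 or 5 of miR-9 and miR-7 was called by edgeR. Over all 202 entries, 43 were called (21.3%). The let-7 entries include the host transcript Mirlet7bhg. Mir30d, the most abundant of the miR-30 family, stood at 8098 and 7914 CPM against 5916 and 5839 CPM. Fitted alone with their own scaling, the miRNA precursors gave 2 calls, Mir351 and Mir6538. Mir6538 stood at 5387 and 5026 CPM with sgMiat-6 and 16837 and 4310.0 CPM with sgMiat-96, so the guides overlapped and only sgMiat-96 replicate 1 was high. It was not called among all entries (1.02, edgeR adjusted p = 0.272).

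Of 74 longer transcripts, 7 were called higher and 9 lower (21.6%), near the 21.3% of all entries. Among the lower ones, Cd68, Ippk, Fcho1, Xist, Miat and Gm12992 were tested only for being high with sgMiat-6. Rabggtb and 1810032O08Rik held the reads of snoRNAs, and Gas5 was called with TMM alone. Among the higher ones, both C430049B03Rik entries held the reads of Mir351, and AI450353 those of Snord7. Nothing is read from these counts. 4922502N22Rik (chr6:139315597-139322576) stood at 72.8 and 47 CPM with sgMiat-6, 1162 and 2137 CPM with sgMiat-96 and 667, 1103, 669 and 722 CPM in the controls. The sgMiat-6 libraries were below all others, and the Mtdh libraries ran from 145 to 3371 CPM, so this entry varied widely elsewhere too. The guide difference was 4.72 ± 1.15 (log2, SE; edgeR adjusted p = 0.00503). Serf2 (chr2:121449198-121453420), which overlaps Serinc4 on the opposite strand, stood at 109 and 93.9 CPM against 792 and 810.4 CPM, with the controls at 0, 16.7, 0 and 36.7 CPM. The Mtdh libraries stood at 200, 846, 1055 and 724 CPM, so a high level was not particular to sgMiat-96. Serf2 differed by 2.95 ± 0.68 between the Miat guides (edgeR adjusted p = 0.0034). Reads of overlapping genes could not be separated, as the use of strand is not given in the sources used here. Gm20125 stood at 246 and 317 CPM against 1248 and 1160.4 CPM (2.10, edgeR adjusted p = 0.0034), lost without sgMiat-6 replicate 1 or sgMiat-96 replicate 1. Its controls stood at 222, 184, 236 and 220 CPM, and the Mtdh libraries above them at 480, 1136, 814 and 474 CPM. Pisd-ps3, with 2 and 0 counts against 20 and 13, gave a ratio of 22 (counting interval 5.62 to 189), lost without sgMiat-6 replicate 2 or either sgMiat-96 library.

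Nuclear long non-coding RNAs had 6 tested entries. Miat and Xist were called lower with sgMiat-96 under all 5 scalings, and none was called higher with TMM. Over all 202 entries, 29 were called lower with TMM (14.4%). Miat and Xist passed the count filter only through the sgMiat-6 libraries, so nothing is read from their number here. Malat1 stood at 1774 and 1491 CPM with sgMiat-6 and 5243 and 2247 CPM with sgMiat-96 and was not called with TMM (1.20, edgeR adjusted p = 0.0741). It was called higher under 3 of the other 4 scalings, with adjusted p from 0.00649 to 0.0556 over the 4, and by DESeq2 (adjusted p = 0.000899). Neat1 had 0 and 0 counts with sgMiat-6 against 3 and 2 with sgMiat-96 and was not called (edgeR adjusted p = 0.0947). Kcnq1ot1 stood at -0.74 (95% interval -2.05 to 0.56). Marker miRNAs of vessel and stroma, mature neurons, glia and other organs gave 0 to 6 summed counts in any Miat library, and none was tested.

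**Figure D2:**
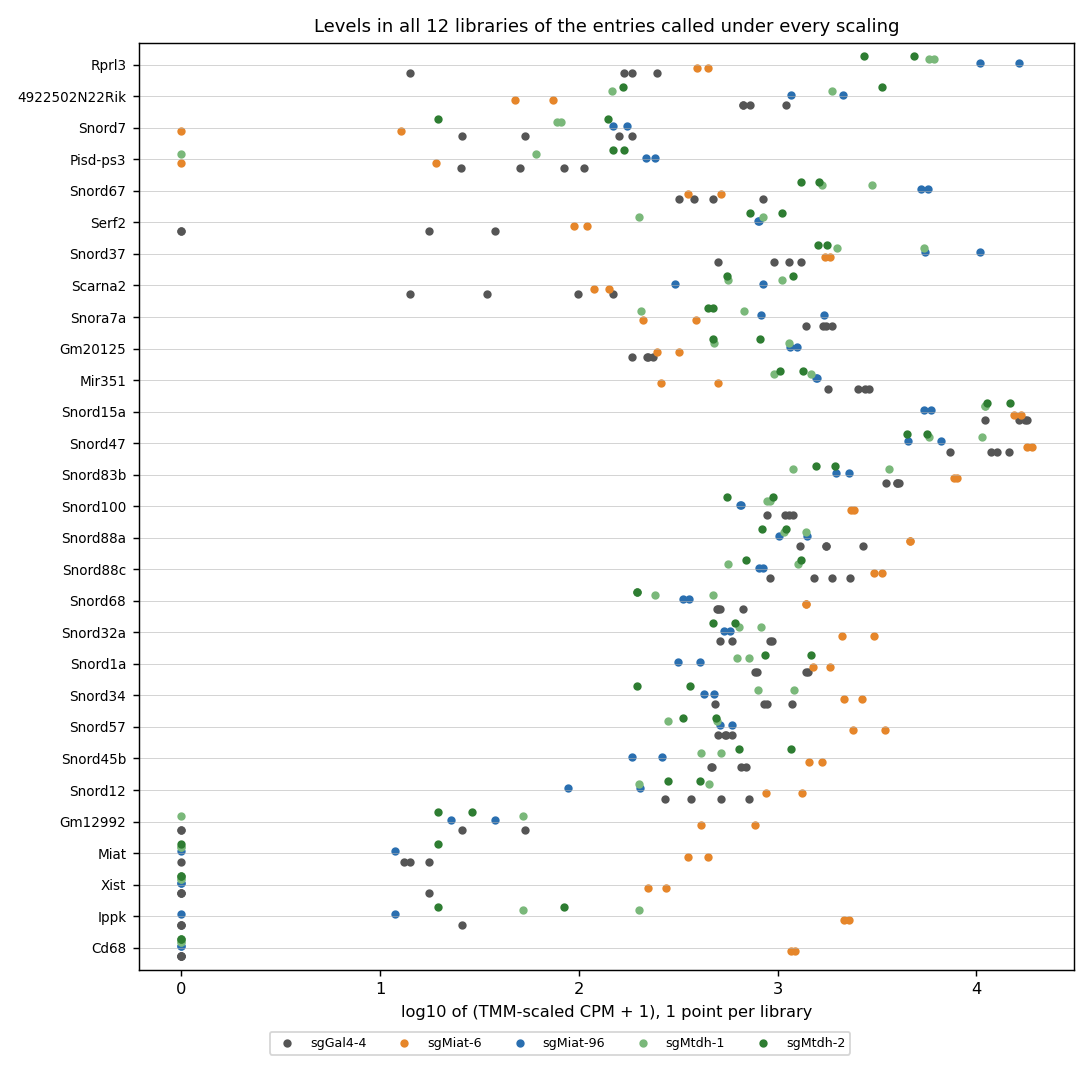
TMM-scaled CPM plus 1 (log10) in each of the 12 libraries, 1 point per library, for the entries called under all 5 scalings, leaving out those that share their reads with an inner entry, ordered by fold change. For Cd68, Xist, Miat and Ippk the orange sgMiat-6 points stand apart on the right, whereas for Rprl3 and Snord67 the blue sgMiat-96 points do.

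On the TMM scale, both sgMiat-6 libraries were above all 10 other libraries for 40 of the 202 entries tested (19.8%) and below them for 11 (5.45%). Both sgMiat-96 libraries were above all others for 6 entries (2.97%) and below for 15 (7.43%). In unscaled CPM of all counts these were 20 (9.9%) and 18 (8.91%) for sgMiat-6 and 5 (2.48%) and 11 (5.45%) for sgMiat-96. Outside Rn45s they were 27 (13.4%) and 14 (6.93%) for sgMiat-6 and 14 (6.93%) and 10 (4.95%) for sgMiat-96. Among the 43 calls, sgMiat-6 was above all others for 24 and below for 6 with TMM, and sgMiat-96 above for 5 and below for 7. For 13 of the 24, 6 of the 6, 3 of the 5 and 6 of the 7 the order was the same on both unscaled CPM. The calls were made on a difference between these guides, and Cd68, Ippk, Fcho1, Xist, Miat and Gm12992 were tested only for being high with sgMiat-6, so nothing is read from the counts among the calls. The 7 were Snord45b, Snord1a, Snord52, Snord15a, Rmrp, Gas5 and 1810032O08Rik, which shares the reads of Snord1a, and of these Rmrp was not lowest in unscaled CPM of all counts.

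Set against the same 4 controls, 43 of 202 entries were called with sgMiat-6 (21.3%), 32 higher (15.8%) and 11 lower (5.45%). With sgMiat-96, 30 were called (14.9%), 15 in each direction (7.43%). These calls are under TMM, whose factors were 0.692 and 0.730 for sgMiat-6 and 1.22 to 1.84 for the controls. A direction against control can depend on that scaling. With sgMiat-6, Snord47 was above all 4 controls under TMM and below all 4 in unscaled CPM of all counts. Of the 43 entries called between the guides, 23 were called against control with sgMiat-6 alone, 12 with sgMiat-96 alone and 5 with neither. Both guides were called in 1 direction for Rprl3 and Serf2, and in opposite directions for Snord45b. Rprl3 stood at 1.51 with sgMiat-6 (adjusted p = 0.0482) and 6.52 with sgMiat-96 (adjusted p = 4.21e-08). Serf2 stood at 2.62 and 5.57 (adjusted p = 0.0259 and 1.55e-05). These contrasts share their controls, so a call with 1 guide and not the other is read only from the direct comparison of the guides.

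**Figure D3:**
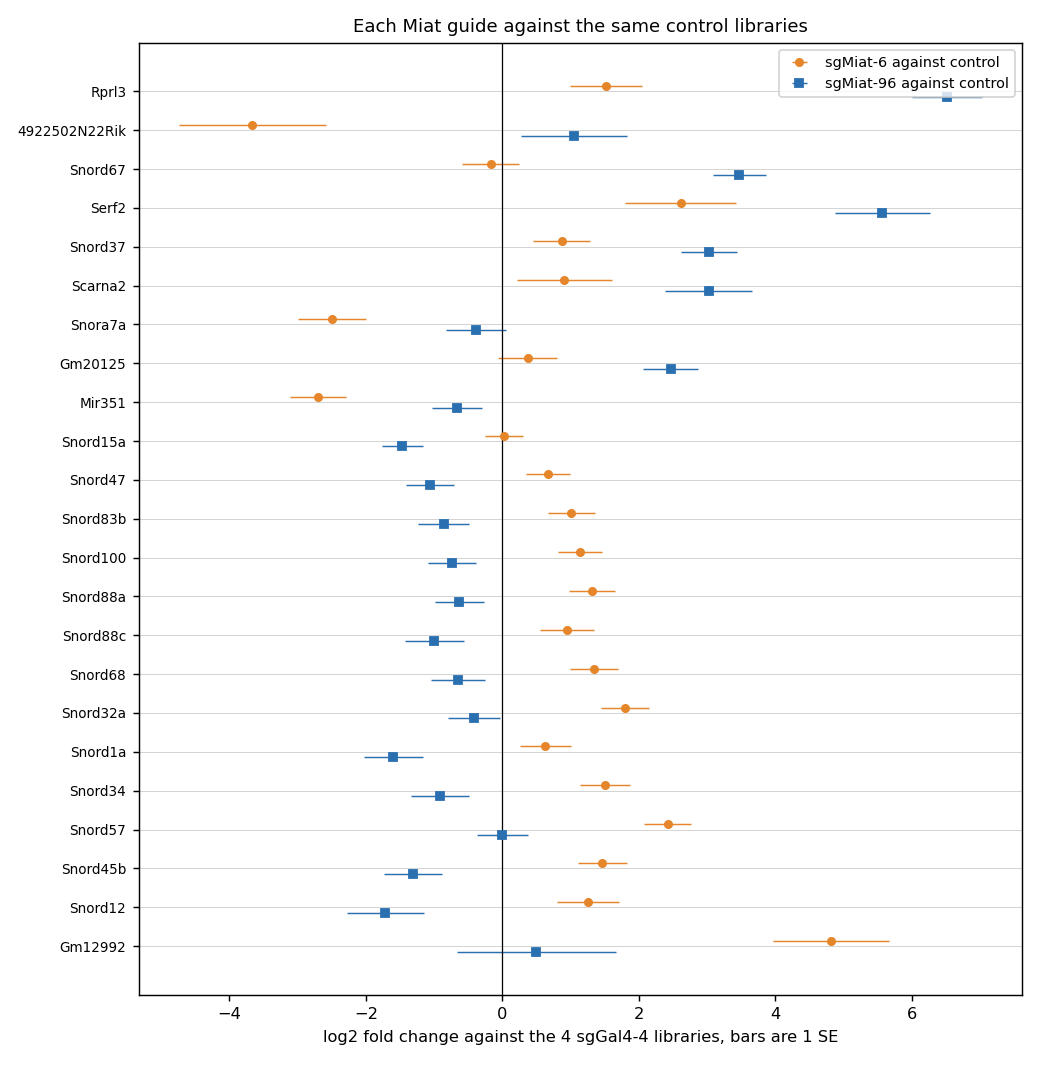
Log2 fold changes (with 1 SE) of sgMiat-6 (orange circles) and sgMiat-96 (blue squares) against the same 4 control libraries, for 23 of the entries called between guides under all 5 scalings; entries with 3 or fewer counts in a group are left out. Under TMM, most of the lower C/D box snoRNAs lie above 0 with sgMiat-6 and at or below 0 with sgMiat-96, while Rprl3 lies above 0 with both.

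Called against control under TMM with both guides in the same direction were 12 entries, and for 10 of them the guides were not called apart with TMM. Of the 10, 5730488B01Rik differed by 1.83 (95% interval 0.45 to 3.22, edgeR adjusted p = 0.055) and was called higher with sgMiat-96 under all 4 other scalings, with adjusted p from 0.0152 to 0.0308. Its counts were 11 and 14 in the sgMiat-6 libraries, 49 and 22 in the sgMiat-96 libraries and 1 or 2 in each control. The Mtdh libraries stood at 240, 376, 860 and 167 CPM for 5730488B01Rik, also above the controls at 13.1 to 24.7 CPM. The narrowest intervals of the guide difference belonged to Scarna6 (-0.21 to 1.13), Mir30d (-1.12 to 0.23), Rn45s (-0.84 to 0.62) and Mir677 (-1.10 to 0.49), all on the log2 scale under TMM. Scarna6 stood at 2839 and 3065 CPM with sgMiat-6, 4158 and 3960.1 CPM with sgMiat-96 and 12591, 12798, 9778 and 13548 CPM in the controls, so both guides were below the controls. Scarna6 was called higher with sgMiat-96 than with sgMiat-6 under 3 of the other 4 scalings, at 0.81 to 1.10 (log2) and adjusted p from 0.00649 to 0.166 over the 4. Mir30d, at 30391, 33815, 20173 and 30487 CPM in the controls, was likewise below them with both guides. Mir677 was above them with both, at 3794 and 2806 CPM and 2182 and 3168 CPM against 1012, 1103, 892 and 783 CPM. Snora81, in the translation factor gene Eif4a2, was also above them with both, at 3831 and 3617 CPM and 3463 and 8546 CPM against 864, 518, 315 and 783 CPM. Only for Rn45s, the ribosomal RNA precursor, did the interval under TMM lie within 1 log2 unit of 0, so for the rest a guide difference of that size was not excluded by these libraries. The Rn45s difference was -0.11 with TMM and 0.10 to 0.54 under the other 4 scalings. Intervals under those scalings are not given, so no limit is set for Rn45s beyond TMM. The median interval width over all 202 entries was 3.16.

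Rn45s took 72.5 ± 0.742% of all counts with sgMiat-6 (SD, n = 2), 77.5 ± 8.96% with sgMiat-96 (n = 2) and 55.2 ± 1.17% in the controls (n = 4). The sgMiat-96 libraries differed from each other, at 71.2% and 83.9%, and spanned both sgMiat-6 libraries, at 73.0% and 72.0% (exact permutation test, two-sided, p = 1). C/D box snoRNAs took 11.0 ± 0.00923% of all counts in the sgMiat-6 libraries and 6.70 ± 2.00% in the sgMiat-96 libraries, against 13.4 ± 0.281% in the controls. Of the counts outside Rn45s they took 39.9 ± 1.11% and 30.5 ± 3.22% in the same order, against 29.9 ± 0.207% in the controls. The place of the guides against the controls thus depended on the denominator. RNase MRP RNA took 24.8 ± 1.30% and 19.2 ± 1.92% outside Rn45s, and RNase P RNA 1.53 ± 0.0133% and 6.67 ± 2.00%. In these shares the guides did not overlap, but with 2 libraries against 2 the exact two-sided permutation test cannot go below its p = 0.3333. The miRNA precursors took 2.46 ± 0.0415% and 2.98 ± 1.83% of all counts, with the sgMiat-6 libraries between the sgMiat-96 ones.

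**Figure D4:**
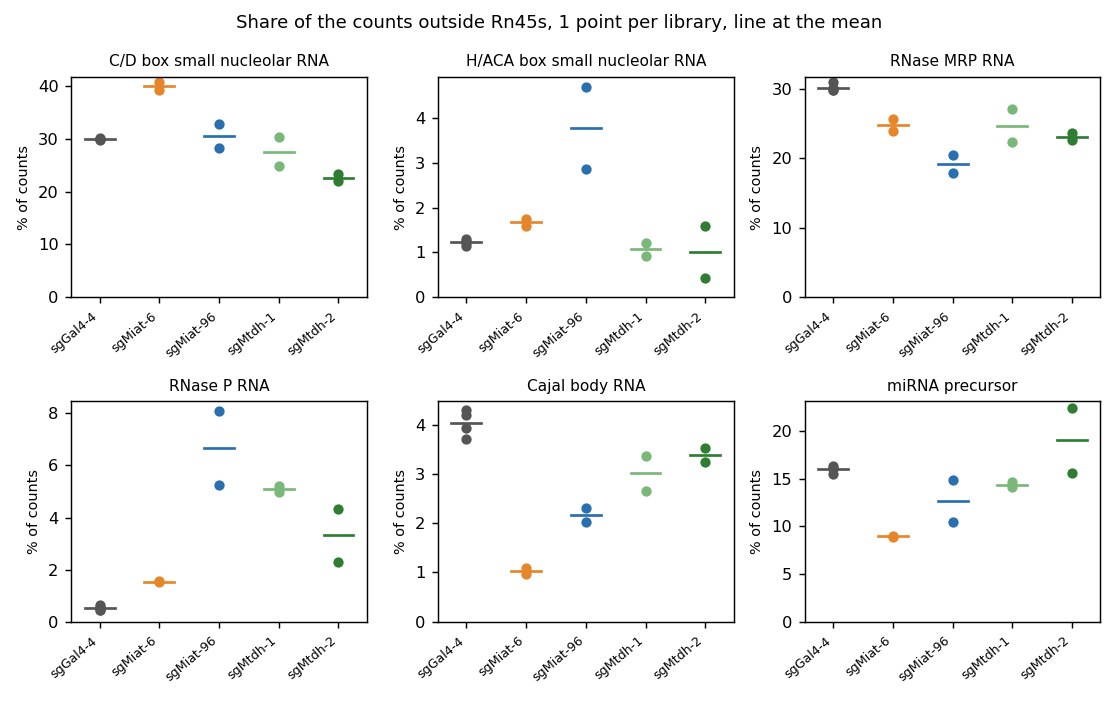
Share of the counts outside Rn45s, in percent, taken by 6 RNA classes in each library, with 1 point per library and a line at each guide's mean. C/D box snoRNAs are highest in the 2 sgMiat-6 libraries, and RNase P RNA runs from 5.25 to 8.08% with sgMiat-96 against 1.52 to 1.54% with sgMiat-6.

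**Figure D5:**
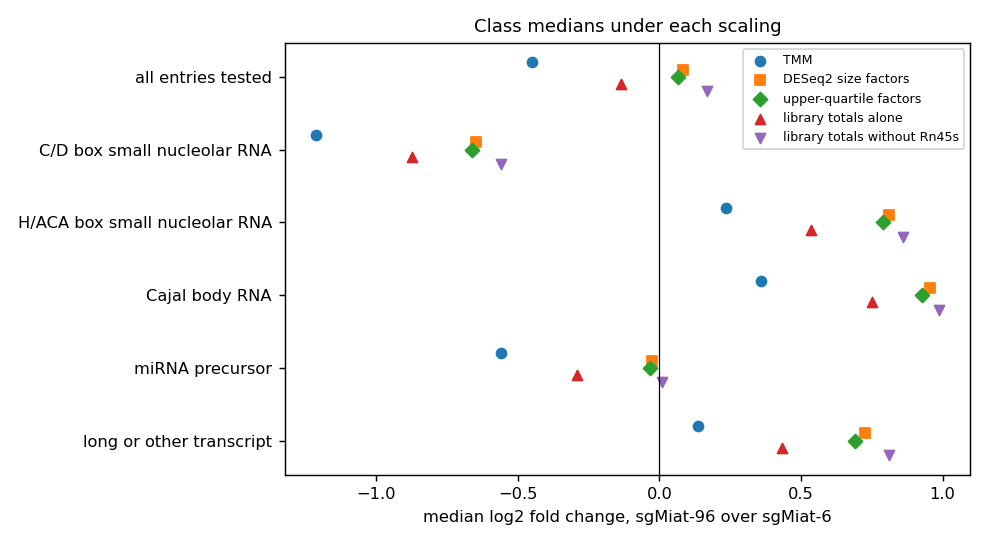
Median log2 fold change of sgMiat-96 over sgMiat-6 for all tested entries and 5 RNA classes under 5 scalings of the libraries. The C/D box median runs from -1.21 to -0.56 and stays below that of all entries, whereas the miRNA median runs from -0.56 to 0.01.

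Replicates of sgMiat-96 differed by more than those of sgMiat-6 in counts, as did those of the Mtdh guides. Over the entries compared, the chi-square statistic per degree of freedom between replicates was 35.4 for sgMiat-96, 28.8 for sgMtdh-2, 18.7 for sgMtdh-1 and 4.43 for sgMiat-6, against 2.88 to 3.82 between controls. By the median absolute log2 difference, sgMiat-96, at 0.50, lay within the control pairs, at 0.41 to 0.64, with sgMiat-6 at 0.39 and the Mtdh guides at 0.74 and 0.89. TMM factors were 1.14 and 0.662 for sgMiat-96, and 0.692 and 0.730 for sgMiat-6. Leaving out sgMiat-96 replicate 2 reduced the calls between guides from 43 to 23, of which 21 were among the 43, and leaving out sgMiat-96 replicate 1 reduced them to 27. 16 calls were made under all 5 scalings and in all 12 fits without a library, comprising the 8 C/D box snoRNAs named above, 1810032O08Rik with the reads of Snord1a, Rprl3, Snord67, Snord37, Serf2, 4922502N22Rik, Ippk and Cd68. Ippk and Cd68 passed the count filter only where they were high, so their place among the 16 is no support for them.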

How the data were processed

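Small RNA was sequenced from 12 libraries of total RNA. Per the submitters' processing notes reads were aligned with STAR to GRCm38 (mm10); the counter, its strand setting and its handling of multiply mapped reads are not stated in the sources used here. Per the file headers each table holds a count, an FPKM and a TPM per row. The deposited counts were analysed; the deposited FPKM and TPM values, which the authors derived from them, were not used. Of 4529 rows, 485 repeated another row of the same symbol and were counted once (1.30 to 3.47% of counts). Entries were filtered with filterByExpr by guide (minimum count 10, minimum total 15), scaled by TMM and fitted with 1 term per guide over all 12 libraries in edgeR 4.0.16 (R 4.3.3), with common dispersion 0.171. Standard errors came from the log2 fold change and its F statistic. In simulated counts the largest changes were mostly called and smaller ones mostly not. Replicate numbers showed no pairing between the Miat guides (correlation of deviations 0.00577). Over all pairs of guides this correlation ran from -0.384 to 0.198, and the main fit used no replicate block. DESeq2 1.42.0 and limma 3.58.1 gave alternatives, as did other scalings, filters, rows and left-out libraries. The comparison, RNA lists and rule for named entries were chosen with earlier results of these data known. The named entries were the calls without overlap (30 by size, then 10 by level), 5 lowest p-values not called, 8 highest levels, up to 4 per list, some fixed names, and 5 called with both guides; Fuom, Snord33, Snord43, Snord42a, Snord1b, Snord1c, Snord68, Snord100, Snora81, Mir6538 and the other entries outside this rule were chosen after their values were seen. Entry coordinates are from RefSeq on GRCm38.p6, and printed snoRNA transcripts and their coordinates from GENCODE on GRCm38, whose ends can differ by some bases.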

Additional observations from a re-analysis of the deposited data

Results flagged for a closer look

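In 6 of the 76 named entries, 1 control library lay far from the other 3, by the ratio of its gap to the nearest value over the whole range beyond Dixon's 95% limit for 4 samples; chance marks about 1 in 20 groups. The highest control was sgGal4-4 replicate 1 for Ippk, at 24.7 CPM with the others at 0. sgGal4-4 replicate 2 was the highest for Xist, at 16.7 CPM with the others at 0, for 4922502N22Rik, at 1103 CPM, and for Rnu11, a spliceosomal RNA of the minor spliceosome, at 300.7 CPM. The lowest control was sgGal4-4 replicate 3 for Snord19, at 9725 CPM, and for Rn45s, at 297050 CPM. For Ippk and Xist the value is a single count.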

How the results depend on the processing

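Between the Miat guides, 43 calls became 21 when any entry with a count was tested (1735 entries), 31 with 10 counts in each of 4 libraries (26 shared with the 43), 42 with DESeq2 (33 shared), 51 with limma-voom (41 shared), 44 with the 4 Miat libraries alone (34 shared), 36 with a minimum fold of 1.5, and 2 with miRNA precursors alone. Counting nested entries once, an alternative chosen after seeing the data, gave 36 of 192 entries. Leaving out a library gave 23 (without sgMiat-96 replicate 2) to 54 calls (without sgMtdh-1 replicate 2). Between the Mtdh guides, 0 calls became 1 with miRNA precursors alone and 0 to 5 without a library. With sgMiat-6 against control, 43 calls became 23 with any entry counted, 9 with miRNA precursors alone and 28 to 59 without a library. With sgMiat-96 against control, 30 calls became 57 with library totals, 11 with any entry counted, 5 with miRNA precursors alone, 17 with a minimum fold of 1.5 and 16 to 37 without a library. Snord15a against control with sgMiat-6, 0.03 (log2), turned to -0.91 with library totals and -0.47 with only the groups compared. Beyond fewer libraries, fewer or more entries tested, the cause was not tested.

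Replicate numbers were not used to pair the libraries in the main fit. With a replicate block the calls were 37 between the Miat guides, 0 between the Mtdh guides, 19 with sgMiat-6 against control and 21 with sgMiat-96 against control.

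With counts outside Rn45s as the denominator, the differences of sgMiat-96 minus sgMiat-6 in percentage points moved from -4.27 to -9.45 for C/D box, 0.330 to 2.10 for H/ACA box, -2.42 to -5.60 for RNase MRP, 1.17 to 5.13 for RNase P and 0.517 to 3.68 for miRNA precursors, and the Miat rate with sgMiat-6 from 283 to 1031 unscaled CPM. Without a library these ranged from -5.69 to -2.85, 0.298 to 0.362, -3.94 to -0.902, 0.426 to 1.91 and -0.779 to 1.81, Rn45s from -1.31 to 11.4 around 5.02, and the Miat rate from 253 to 304. Depth limits the low entries: 3 counts were worth 18.6 to 36.4 unscaled CPM in the Miat libraries.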
